A study of Homo sapiens with 12 samples.

Results

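Knockout clone 2 of the TC71 cell line was compared with unedited TC71 cells, with 3 RNA libraries on each side, so that 6 of the 12 libraries of the series enter the comparison. TC71 is an established Ewing sarcoma line, a tumour of bone and soft tissue in children and young adults. The study sequenced polyadenylated RNA from wild-type TC71, from ID2-knockout clones 1 and 2, and from clone 2 with an ID2 rescue, with 3 libraries each. Wild-type libraries carry no edit and no rescue. Clone 2 libraries carry the ID2 knockout and no rescue, and all come from 1 clone. All cells were grown in DMEM with serum. The labels do not say how ID2 was edited, which exon was hit, or whether replicates were cultured separately. The p-values below therefore measure the spread between libraries, which may be technical.

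ID2 is a helix-loop-helix protein that has no DNA-binding region. It pairs with the E proteins TCF3, TCF4 and TCF12, which bind short DNA motifs called E-boxes, and holds them off DNA. ID proteins are known to keep progenitor and tumour cells dividing and undifferentiated, and the CDK inhibitor gene CDKN1A is a classical gene that E proteins switch on and ID proteins hold down. In Ewing sarcoma the tumour is driven by a fusion of EWSR1, on chromosome 22, with FLI1, on chromosome 11. Because the clone's chromosome 11 genes stood apart as a group, they are described separately from the rest.

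Each library held between 19420408 and 29748084 counts. Of 21569 genes in the table, 17084 passed a filter on low counts and were tested together with edgeR's quasi-likelihood test, with Benjamini-Hochberg adjustment over all of them. A gene is called here when its adjusted p lay below 0.05. Levels are CPM, counts scaled to a fixed total per library, which do not correct for gene length, and changes are log2 fold changes of clone 2 over wild-type, where 1 is a doubling, given as estimate ± standard error. Clone 2 differed from wild-type in 10610 of the 17084 genes, or 62.1%. Of all tested genes, 5380 were higher (31.5%) and 5230 were lower (30.6%). Asking also for a change of at least 2-fold left 1775 higher genes (10.4%) and 491 lower genes (2.87%). Replicate libraries lay very close together, with a common biological coefficient of variation of 2.95%, so small changes pass the test and sizes matter more than calls. For the same reason, groups can lie apart without overlap at a small change, as for FLI1 below, which was not called. The share of all tested genes without overlap is not given here, so a lack of overlap only describes the gene named. CD99 and NKX2-2, markers of the Ewing sarcoma cell, were picked after their values were seen, and both were higher in clone 2. CD99, the diagnostic surface antigen, had means of 413 CPM in wild-type and 499 CPM in clone 2. The nuclear factor NKX2-2 had 11.1 and 21.4 CPM. Other genes tied to this tumour went either way, as given below for CCND1 and for the fusion's targets.

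ID2 itself lies at chr2:8678845-8684453 (hg38, plus strand, GENCODE 29 gene limits). Its level was 77.6, 78.6 and 77.4 CPM in the wild-type libraries and 47.8, 50.8 and 54.1 CPM in clone 2. All 3 clone 2 libraries lay below all wild-type libraries. ID2 RNA was thus lower by 0.62 ± 0.04 on the log2 scale, at 0.652 of the wild-type level (edgeR, adjusted p = 1.54e-15), and was still plentiful. Gene-level counts do not show which bases were edited, and an edit that stops the protein can leave the RNA in place, so the level checks the label only in part. In clone 1 the mean was 18.1 ± 0.777 CPM (SD, n = 3). The libraries labelled as the rescue had 41.5 ± 0.537 CPM of ID2 (SD, n = 3), below clone 2, so ID2 counts do not show the rescue.

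The sequence just before the RefSeq start site of ID2 is shown because the E proteins, which ID proteins hold off DNA, bind E-boxes. In the RefSeq table (GRCh38.p14), the 250 bases upstream of ID2 lie at chr2:8681806-8682055 and hold 1 E-box of the form CAGCTG, in capitals; the same window of CDKN1A, at chr6:36678464-36678713, also holds 1. Both are printed 5′ to 3′ on the plus strand, on which both genes lie. The GENCODE limits of both genes also span transcripts that begin further upstream, so each window lies inside those limits.
ID2: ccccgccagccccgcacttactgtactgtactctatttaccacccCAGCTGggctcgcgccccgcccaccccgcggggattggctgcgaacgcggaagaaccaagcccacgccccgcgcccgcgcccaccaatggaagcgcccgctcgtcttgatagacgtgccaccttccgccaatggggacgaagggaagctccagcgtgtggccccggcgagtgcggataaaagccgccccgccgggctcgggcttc
CDKN1A: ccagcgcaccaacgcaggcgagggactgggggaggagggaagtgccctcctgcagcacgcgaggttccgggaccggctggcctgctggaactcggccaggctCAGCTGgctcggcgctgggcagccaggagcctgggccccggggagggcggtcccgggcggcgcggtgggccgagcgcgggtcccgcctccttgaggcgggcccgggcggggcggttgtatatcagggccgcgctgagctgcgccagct
The search covered CAGCTG, which reads the same on both strands, and CAGGTG with its reverse complement CACCTG. Of 11553 tested genes with a window in the table, 12.7% held CAGCTG and 15.5% held CAGGTG. Among the genes higher by at least 2-fold, 1115 had a window, of which 15.4% held CAGCTG and 19.2% held CAGGTG. Among those lower by at least 2-fold, 315 had a window, with 14.0% and 16.2%. On chromosome 11 the shares were 14.0% and 14.8% of 607 windows. A match is a description of the letters and not a bound site.

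The genes that flank ID2 on chromosome 2 did not sit at their wild-type level. Between the start of the chromosome and ID2, 13 genes reached a mean of 1 CPM, leaving aside ID2-AS1, which overlaps ID2 on the other strand. All 13 lay below 0, with a median log2 change of -0.94, and 11 were called lower. ACP1, a phosphatase gene, went from 182 ± 3.65 CPM to 79.6 ± 2.15 CPM (SD, n = 3) and fell by 1.20 ± 0.04. The peroxidasin gene PXDN, which encodes a matrix enzyme, fell by 1.49 ± 0.04, and the ribosomal protein gene RPS7 fell by 0.94 ± 0.03. These genes were singled out after their values were seen. The same 13 genes had medians of -0.59 in clone 1 and -0.84 in the libraries labelled as the rescue.

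On the other side of ID2 the direction turned. From the end of ID2 to 35 Mb, 130 genes had a median of 0.35, and 120 of them lay above 0, with 104 called higher and 5 lower. KIDINS220, the first gene after ID2 at this level, stood at 124, 129 and 131 CPM in wild-type and 128, 133 and 136 CPM in clone 2, a difference of 0.05 ± 0.04. The next genes MBOAT2 and ASAP2 rose by 0.45 ± 0.05 and 0.69 ± 0.06. In clone 1 the same 130 genes had a median of 0.04. Beyond 35 Mb the median of the chromosome was -0.08 over 796 genes. ID2-AS1 was higher by 0.88 ± 0.14, but where strand was ignored in counting its reads and those of ID2 cannot be told apart, and the strand setting is not given in the sources used here. ID2 therefore lies where the change along the chromosome goes from lower to higher, and how much of its own difference follows its neighbours was not tested.

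**Figure D1:**
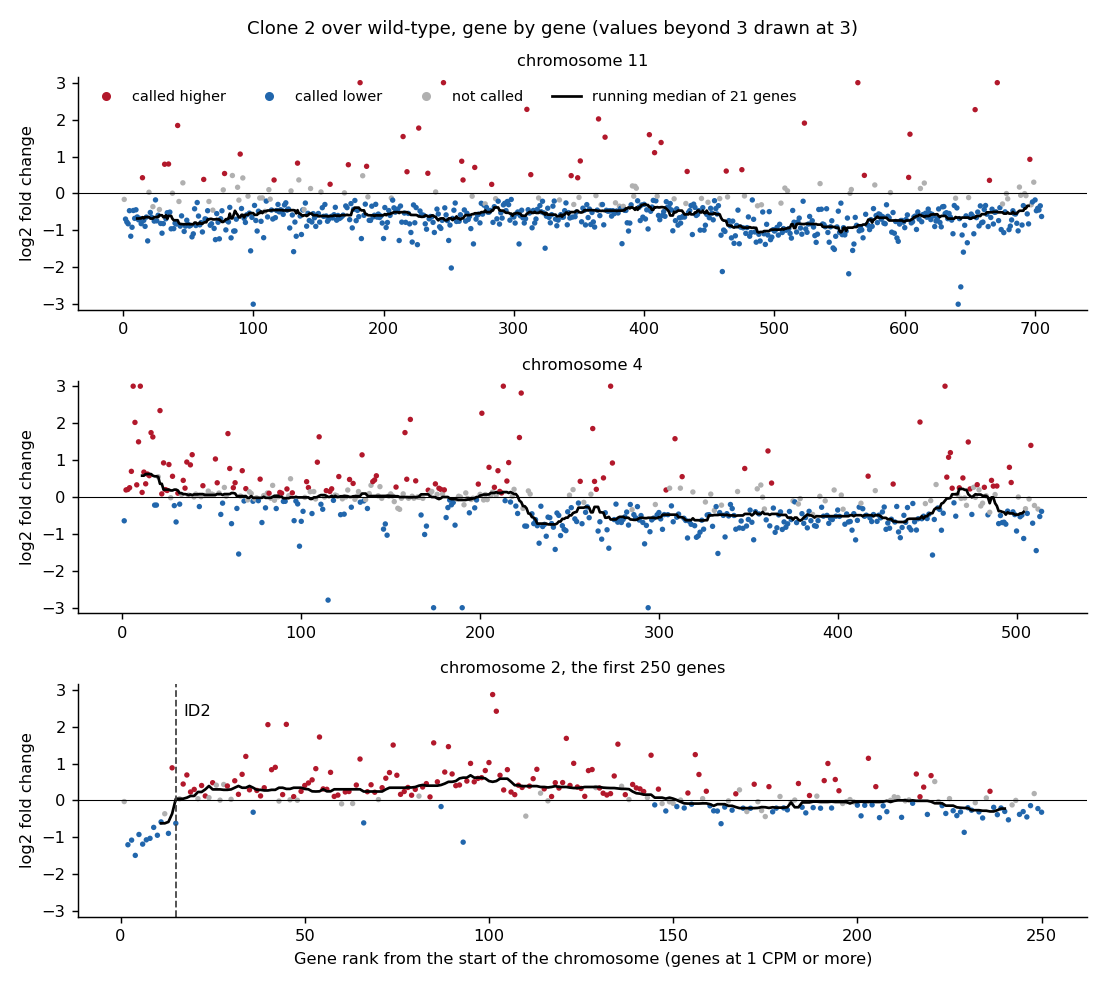
Log2 fold change of clone 2 over wild-type for single genes at a mean of 1 CPM or more, against gene rank along chromosomes 11 and 4 and the first 250 genes of chromosome 2; red points are called higher, blue points called lower, grey points not called, values beyond 3 are drawn at 3, and the black line is a running median of 21 genes. The line stays below 0 along all of chromosome 11, drops part of the way along chromosome 4, and on chromosome 2 goes from below to above 0 at ID2 (dashed).

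Among the other ID and E protein genes, ID1 and ID3 fell together with ID2 while ID4 rose. ID1 had 42.9, 43.6 and 43.4 CPM in wild-type and 31.4, 27.6 and 27.8 CPM in clone 2, and fell by 0.57 ± 0.05 (adjusted p = 5.49e-12, edgeR). ID3, the most abundant of the 4, had 182, 202 and 185 CPM against 125, 117 and 123 CPM and fell by 0.64 ± 0.04. For both genes every clone 2 library lay below every wild-type library. ID4 went the other way, from 37.1, 38.1 and 39.6 CPM to 53.7, 56.1 and 52.3 CPM, a rise of 0.49 ± 0.05, again with no overlap. Of the E proteins, TCF12 fell by 0.30 ± 0.03 and TCF3 by 0.21 ± 0.03. TCF4 was not called at 0.01 ± 0.03, although it passed the threshold with upper quartile scaling. In all, 5 of the 7 ID and E protein genes were lower and 1 was higher. All 7 lie outside chromosome 11, where 28.8% of all tested genes were lower and 32.9% were higher. The 7 genes were not tested as a group.

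Chromosome 11 stood apart from every other chromosome. Of its 853 tested genes, 610 were lower (71.5%) and 70 were higher (8.21%). Of the 15777 tested genes on other chromosomes, 4538 were lower (28.8%) and 5184 were higher (32.9%), and 454 more had no coordinates. Over the 705 chromosome 11 genes at 1 CPM or more the median log2 change was -0.61, a ratio of 0.656, with quartiles of -0.82 and -0.36, and 89.6% lay below 0. Outside chromosome 11 the median was -0.00 over 12769 genes. Medians of the other 22 chromosomes ran from -0.36, on chromosome 18, to 0.15. Chromosome 18 had nearly the same median in clone 1, at -0.38, whereas chromosome 11 had -0.03 in clone 1 and -0.55 in the libraries labelled as the rescue, which derive from clone 2.

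**Figure D2:**
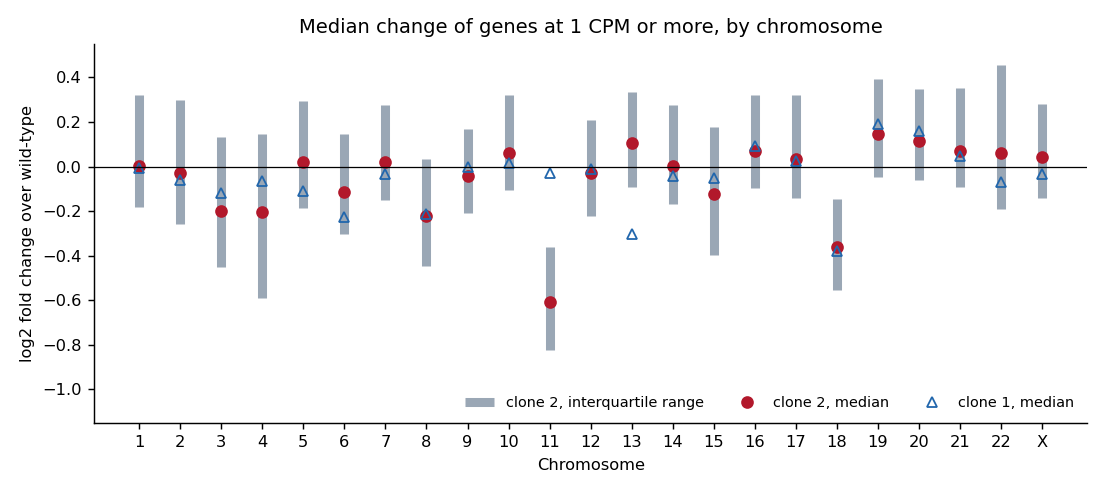
Median log2 fold change over wild-type of genes at a mean of 1 CPM or more, by chromosome, for clone 2 (red points, with grey bars from the first to the third quartile) and clone 1 (blue triangles). Chromosome 11 in clone 2, at -0.61, is the lowest point, and its triangle for clone 1 lies at -0.03.

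The shift was the same in each library. Chromosome 11 genes took 5.97%, 6% and 5.95% of the counts in the wild-type libraries and 4.04%, 4.04% and 4.03% in clone 2. The mean share thus went from 5.97 ± 0.0252% to 4.04 ± 0.0053% (SD, n = 3 each), a ratio of 0.676. The chromosome was singled out with its values known, so this separation is a description. An exact two-sided permutation test cannot go below p = 0.1 with 3 against 3 libraries and gave that value, which adds nothing to it. Clone 1 had a share of 5.91 ± 0.0359% and the libraries labelled as the rescue had 4.20 ± 0.0025%. It did not rest on a few abundant genes: without the 10 most abundant chromosome 11 genes the share went from 4.44% to 2.98%, a ratio of 0.672.

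**Figure D3:**
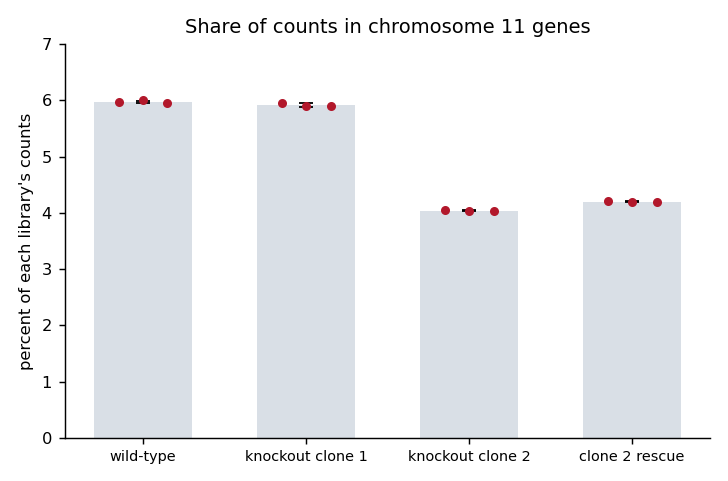
Percent of each library's counts that fall in chromosome 11 genes; bars are group means, whiskers are SD and points are the 3 libraries of each of the 4 groups. Wild-type and clone 1 lie at means of 5.97% and 5.91%, and clone 2 and the rescue made from it at 4.04% and 4.20%.

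Nor was it confined to one level of expression or one stretch of the chromosome. All 106 chromosome 11 genes at 100 CPM or more lay below 0, with a median of -0.64. Between 10 and 100 CPM, 393 of 414 genes lay below 0, with a median of -0.62, and between 1 and 10 CPM, 133 of 185 did, with a median of -0.43. Outside chromosome 11 the genes at 100 CPM or more had a median of -0.07, and those between 1 and 10 CPM had a median of 0.19. Every one of the 12 stretches of 10 Mb with at least 20 genes had a median of -0.4 or lower. The depth varied along the chromosome: 118 genes between 70 and 100 Mb had a median of -0.89, against -0.56 for the 439 genes before and -0.62 for the 148 genes after that stretch. The genes between 70 and 100 Mb had a median of -0.02 in clone 1.

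Because of this shift, chromosome 11 genes were also tested against the median of their own chromosome, by taking -0.61 as the null value. Measured that way, 295 of the 853 genes were higher than the chromosome as a whole, 239 were lower and 319 were not called. Of the 610 genes lower than wild-type, 233 were not called against the chromosome's median and 138 were higher than it.

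FLI1, the 3′ partner of the EWSR1 fusion, lies at chr11:128686535-128813267 and did not follow the rest of the chromosome. It had 89.1, 90.4 and 90.7 CPM in wild-type and 84.5, 87.9 and 88.8 CPM in clone 2, and every clone 2 library lay below every wild-type library by a small margin. The change was -0.05 ± 0.04 and was not called (edgeR, adjusted p = 0.245). Against the chromosome's median FLI1 was higher by 0.56 (edgeR, adjusted p = 2.33e-16). Gene counts do not separate the fusion transcript from FLI1 itself. EWSR1, on chromosome 22, went from 498 ± 32.8 CPM to 409 ± 18.3 CPM (SD, n = 3) and fell by 0.28 ± 0.04. The cyclin gene CCND1, which drives entry into S phase and is highly expressed in Ewing sarcoma, went from 1349, 1371 and 1345 CPM to 1113, 1105 and 1106 CPM. It fell by 0.29 ± 0.03, with no overlap between groups, and was higher than the chromosome's median by 0.32.

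Of 50 chromosome 11 genes listed for their known roles, 42 were tested, of which 37 were lower and 3 were higher, with a median of -0.67. Among those that fell beyond the chromosome's median were several regulators of growth and the cell cycle. YAP1, the Hippo pathway coactivator, had 53.3, 49.9 and 52.9 CPM in wild-type and 19, 17.3 and 17.1 CPM in clone 2, and fell by 1.54 ± 0.05 (adjusted p = 3.55e-25, edgeR). WEE1, the kinase that holds cells before mitosis, had 72.6, 70.3 and 74 CPM against 30.4, 32.7 and 31.4 CPM and fell by 1.20 ± 0.05. The kinase gene PAK1, which acts on the actin skeleton, fell by 1.18 ± 0.05. For all 3 genes the groups did not overlap. Relative to the chromosome's median YAP1 was at -0.94, WEE1 at -0.60 and PAK1 at -0.58, each called lower. That median takes no account of place along the chromosome, and some stretches lay below it, so a fall beyond it need not exceed that of neighbouring genes. The DNA damage genes H2AX and CHEK1 fell by 1.09 and 0.98, the ribosomal protein gene RPS3 by 1.04 and the cholesterol enzyme gene DHCR7 by 0.99. DHCR7 lies in the stretch between 70 and 100 Mb, where the median was -0.89, near its own change. Others moved with the chromosome and no further: ATM, the kinase that senses DNA breaks, fell by 0.57 ± 0.05 and lay 0.03 from the median. The chromatin gene KMT2A fell by 0.61, the apoptosis inhibitor gene BIRC2 by 0.65 and the lactate dehydrogenase gene LDHA by 0.57, and none of the 3 was called against the median.

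Only a minority of chromosome 11 genes rose, and some of them rose far. NCAM1, a neural cell adhesion molecule also known as CD56, had 10.4, 12.9 and 10.1 CPM in wild-type and 34.6, 33.7 and 32.2 CPM in clone 2, a rise of 1.60 ± 0.07 (adjusted p = 4.86e-22, edgeR). The nuclear long noncoding RNAs MALAT1 and NEAT1 rose by 0.88 ± 0.05 and 0.42 ± 0.06. TSPAN18, a tetraspanin gene, went from 0.965, 0.806 and 1.14 CPM to 10.5, 9.72 and 9.31 CPM, a 9.97-fold rise. FERMT3, which encodes the integrin activator kindlin-3, rose 4.85-fold, from 3.1, 3.65 and 3.69 CPM to 18, 16.9 and 15.6 CPM. For these 5 genes every clone 2 library lay above every wild-type library, which for TSPAN18 and FERMT3 the rule that named them required. FEZ1, which encodes a protein of axon outgrowth, rose 12.5-fold from 20 counts over the 3 wild-type libraries to 240 in clone 2. The collagenase gene MMP1 had 1 count in wild-type and 159 in clone 2, a ratio of 168 with an exact 95% counting interval of 29.7 to 6674. MS4A8, UBASH3B, SNX32 and SYTL2 rose from below 1 CPM by 3.60, 2.27, 2.02 and 1.90. Genes near 0 in wild-type enter the test only because they are higher elsewhere, which limits what these rises show. Genes near 0 in clone 2 enter it in the same way. What the filter adds to either direction was not tested.

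The chromosome 11 genes that fell most were also far from the median of the chromosome. NLRX1, which encodes a mitochondrial member of the NOD-like receptor family, had 212 counts in wild-type and 3 in clone 2, a ratio of 0.0149 with an exact 95% counting interval of 0.00306 to 0.0443. MCAM, the adhesion molecule CD146, had 3.31, 3.41 and 3.72 CPM against 0.558, 0.708 and 0.556 CPM and fell by 2.53 ± 0.22. ARHGEF17, a guanine nucleotide exchange factor gene, had 29.3, 34.3 and 27.1 CPM against 6.63, 7.79 and 6.48 CPM and fell by 2.12 ± 0.09. None of these groups overlapped, which the rule that named the genes required. CNTN5, VWCE, USP2, ANO5 and PARVA fell by 2.18, 2.02, 1.59, 1.58 and 1.55; all 5 were called lower than the chromosome's median as well. NLRX1, at chr11:119166568-119184016, MCAM, at chr11:119308529-119321521, and USP2, at chr11:119355215-119381726, lie close together. CBL, which overlaps MCAM, fell by 0.68, and THY1, just beyond USP2, fell by 0.61, and neither was called against the median.

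**Figure D4:**
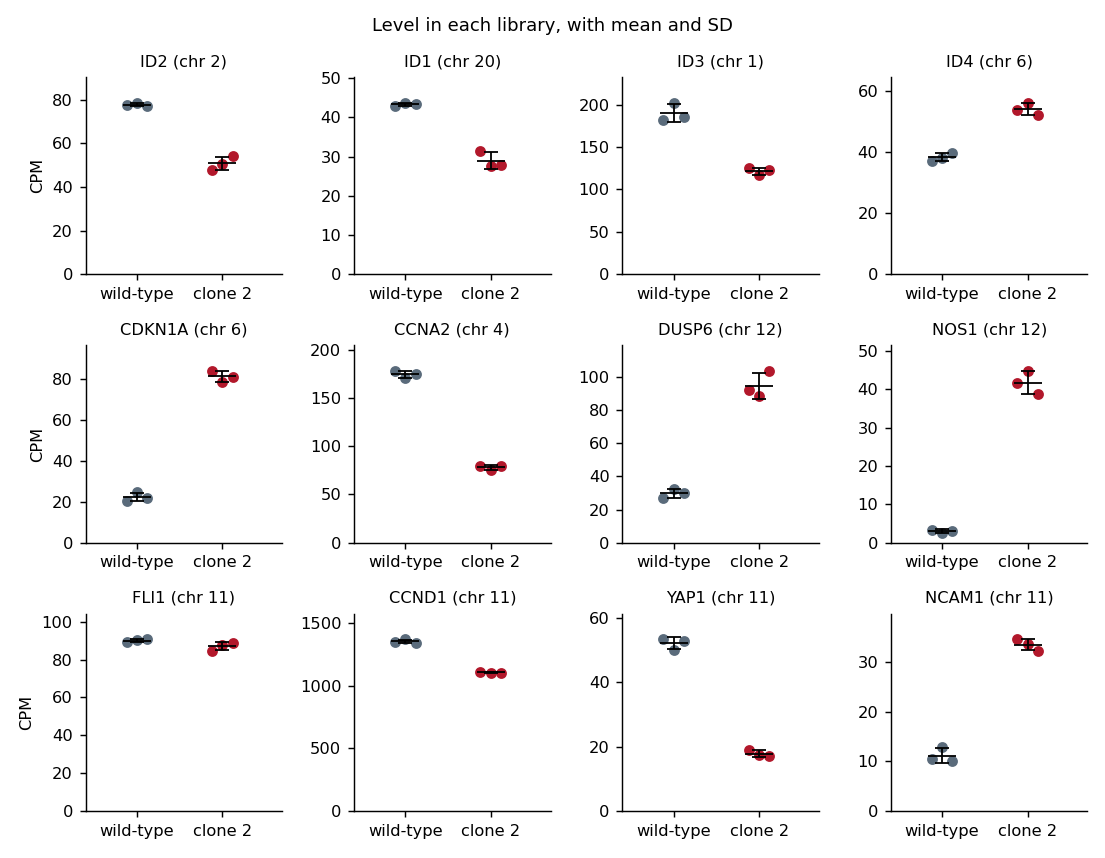
CPM of 12 genes in each of the 3 wild-type (grey) and 3 clone 2 (red) libraries; black marks are the mean with SD, and every axis starts at 0. ID2, ID1 and ID3 are lower and ID4 is higher in clone 2; of the chromosome 11 genes in the bottom row, FLI1 differs by -0.05 on the log2 scale, CCND1 by -0.29, YAP1 by -1.54 and NCAM1 by 1.60.

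Stretches of other chromosomes were shifted too. Of 241 stretches of 10 Mb outside chromosome 11 with at least 20 genes, 16 had a median of -0.4 or lower, 7 of them on chromosome 4, and 6 had a median of 0.3 or higher. These stretches were picked after their values were seen and carry no test. On chromosome 4, 219 genes between 80 and 160 Mb had a median of -0.55 and 188 of them lay below 0, while the 227 genes before 80 Mb had a median of 0.05. Clone 1 had a median of -0.07 over the 219 genes, and the libraries labelled as the rescue had -0.47. On chromosome 1, 83 genes between 90 and 110 Mb had a median of 0.71, with 67 called higher and 6 lower; clone 1 had -0.10 and the libraries labelled as the rescue had 0.73. The ribosomal protein gene RPL5, at chr1:92831983-92841924, lies in that block and rose from 1724 ± 23 CPM to 3700.5 ± 54.9 CPM (SD, n = 3), by 1.10 ± 0.03. On chromosome 3, 228 genes between 30 and 60 Mb had a median of -0.42, and on chromosome 15, 64 genes between 60 and 70 Mb had a median of -0.46. Leaving out chromosome 11 and the 29 other stretches of at least 20 genes with a median of 0.3 or more in either direction, 14313 genes were tested, of which 4773 were higher and 3841 were lower, so 60.2% were still called.

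Outside chromosome 11, 1674 genes rose by at least 2-fold, and 370 fell by as much. Here too, genes near 0 in wild-type were tested only because they are higher elsewhere. The rises from near 0 given in this and later paragraphs carry that limit. GABRA5, a subunit of the GABA-A receptor, had 3.1, 2.27 and 2.38 CPM in wild-type and 132, 127 and 130.1 CPM in clone 2, a rise of 5.65 ± 0.07 or 50.2-fold (adjusted p = 5.49e-41, edgeR). NOS1, the neuronal nitric oxide synthase gene, had 3.44, 2.56 and 3.1 CPM against 41.6, 44.8 and 38.8 CPM and rose 13.6-fold. DLK1, a secreted and membrane-bound relative of the Notch ligands, had 0.629, 0.379 and 0.414 CPM against 17.5, 16.6 and 16.4 CPM and rose 35.3-fold. In these 3 genes, named by a rule that required groups without overlap, the groups were far apart, and the wild-type level was low. RAB3C, a GTPase gene of secretory vesicles, rose 56.2-fold from 8 counts over 3 libraries to 445. BICC1, an RNA-binding protein gene, rose 13.8-fold, the receptor gene GPR27 16.5-fold and the extracellular glutathione peroxidase gene GPX3 17.8-fold. The proteoglycan gene VCAN rose 19.5-fold, the sialidase gene NEU4 26.5-fold, and TMTC1, RGS18 and SLC49A3 rose 36-, 22.9- and 13.7-fold.

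The genes that fell most were nearly silent in clone 2. Such genes were tested only because they are higher elsewhere, and the falls to near 0 in this and later paragraphs carry that limit. PDGFRA, with 653 counts in wild-type, had 3 in clone 2, 6 in clone 1 and 2 in the libraries labelled as the rescue. It passed the filter only through wild-type, as did NUP210. PDGFRA, a receptor tyrosine kinase gene, had 8.6, 9.05 and 8.86 CPM in wild-type and 0, 0.101 and 0.0463 CPM in clone 2, a ratio of counts of 0.00485 with an exact 95% counting interval of 0.000998 to 0.0142. TACR3, a neurokinin receptor gene, had 335 counts in wild-type and 0 in clone 2, at least 106-fold lower when clone 2 is set at a floor of 3 counts over the group. CHMP4C, of the abscission machinery, had 185 counts against 0 and was at least 58.4-fold lower. These intervals and floors cover counting error only. PRSS21, the serine protease gene testisin, had 23.5, 23.3 and 23.2 CPM against 0.105, 0.152 and 0.278 CPM and fell by 7.05 ± 0.17, and COL4A5, a basement membrane collagen gene, fell by 6.49 ± 0.32. SLC7A3, a transporter of cationic amino acids, had 439 counts against 2, the nuclear pore gene NUP210 425 against 2 and the histone variant gene H2AJ 247 against 1. SCML1, EPHA5, LUM and AMOT likewise went from 379, 218, 277 and 228 counts to 2, 1, 2 and 2. For each of these genes all wild-type libraries lay above all clone 2 libraries, which the rule that named them required.

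Most cell division genes fell, by small steps. The background for the gene groups that follow is 31.5% higher and 30.6% lower over all tested genes, 32.9% and 28.8% outside chromosome 11, and 8.21% and 71.5% on it. These shares do not allow for the level of expression, with which the direction changed. Outside chromosome 11, 38.0% of genes between 1 and 10 CPM lay below 0, against 60.6% at 100 CPM or more. Of 65 genes of mitosis, the spindle and the kinetochore, all tested, 61 were lower and 0 were higher, with a median of -0.38. Off chromosome 11, 57 of 61 were lower, against 28.8% of all genes there. Outside the shifted stretches as well, 50 of 54 were lower, with a median of -0.35. CCNA2, the S and M phase cyclin gene, had 178, 171 and 175 CPM in wild-type and 79.2, 74.9 and 79.95 CPM in clone 2 and fell by 1.16 ± 0.04 (adjusted p = 5.76e-26, edgeR), though it lies in the lowered stretch of chromosome 4. The mitotic kinesin genes KIF23, KIF15 and KIF18A fell by 0.99, 0.92 and 0.89, and each of the 3 lies in one of the lowered stretches of chromosomes 15, 3 and 11. Among those that do not, 2 well-known genes were picked after their values were seen. BUB1, a spindle checkpoint kinase gene, fell by 0.51 ± 0.03, and MKI67, which encodes the proliferation antigen Ki-67, by 0.36 ± 0.04. The 4 that were not lower, NUF2, CDK1, UBE2C and CDC25B, were not called, at -0.06, -0.05, -0.02 and 0.01.

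Genes of DNA replication were mostly lower too. Of 52 listed replication and S phase genes, 51 were tested, with 39 lower and 2 higher and a median of -0.22; off chromosome 11 the count was 35 of 47. MCM6 and MCM2, subunits of the replicative helicase, went from 299 ± 2.64 CPM to 166 ± 2.22 CPM and from 458 ± 13.1 CPM to 262 ± 6.88 CPM (SD, n = 3), falls of 0.85 and 0.80. RRM1 and POLD3, on chromosome 11, fell by 0.87 and 0.93. RRM2, which encodes the other subunit of the ribonucleotide reductase and lies in the raised stretch of chromosome 2, was at 0.01 ± 0.03 and was not called. The cyclin E genes CCNE1 and CCNE2 were the 2 that rose, by 0.42 and 0.13; for CCNE2 the groups overlapped, and leaving out single libraries left 1 or 2 higher genes in the list. Of 43 genes of homologous recombination and the Fanconi pathway, 29 were lower and 4 were higher, with a median of -0.25. All 5 on chromosome 11 were lower, with a median of -0.90, where 71.5% of all tested genes were lower with a median of -0.56. Elsewhere 24 of 38 were lower, against 28.8% of all genes, with a median of -0.21. The 4 that rose were RAD50, by 0.59, and FANCA, BRCA1 and BRCA2, each by 0.12. Without single libraries, among them the second clone 2 and the third wild-type library, the count of higher genes went down to as few as 1. RAD50 encodes the partner of MRE11, which lies on chromosome 11 and fell by 0.90.

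The CDK inhibitor and D cyclin genes moved further, in both directions. CDKN1A, which encodes the CDK inhibitor p21 and whose upstream window is printed above, had 20.4, 24.6 and 22 CPM in wild-type and 83.8, 78.6 and 81.1 CPM in clone 2. Every clone 2 library lay above every wild-type library, and the rise was 1.87 ± 0.05 or 3.65-fold (adjusted p = 1.2e-28, edgeR). CDK6, a partner of the D cyclins, went from 2.27, 3.13 and 2.24 CPM to 14.3, 14.9 and 12.5 CPM, a 5.54-fold rise. CCND2 had 76 counts in wild-type and 0 in clone 2, at least 24-fold lower. The imprinted CDK inhibitor gene CDKN1C, on chromosome 11, had 33 counts against 3, a ratio of 0.096 with an exact 95% counting interval of 0.0188 to 0.306. Of the 27 tested genes of this list, 15 were lower and 8 were higher. Among 25 tested p53 targets, which include CDKN1A, 9 were higher and 9 were lower, with a median of 0.03, while upper quartile scaling gave 12 higher and 9 lower. These counts lie near the shares over all tested genes. PLK2, a polo-like kinase gene, rose by 2.45 ± 0.51, from only 7 counts over the wild-type libraries to 38 in clone 2. GADD45A, a stress sensor gene, rose by 1.27 ± 0.09, while PHLDA3 fell by 0.81 ± 0.07. MDM2, the p53 ubiquitin ligase gene, looked at after its value was seen, was not called, at -0.06.

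Genes of cholesterol synthesis fell nearly throughout. Of 25 genes, 22 were lower and 0 were higher, with a median of -0.38; off chromosome 11, 19 of 22 were lower, with a median of -0.35. HMGCS1, which makes the precursor of mevalonate, had 238, 245 and 241 CPM in wild-type and 142, 145 and 132 CPM in clone 2 and fell by 0.79 ± 0.03. SC5D and DHCR7, enzymes of late steps encoded on chromosome 11, fell by 1.09 and 0.99, beyond the chromosome's median. For DHCR7 the median of its own stretch, between 70 and 100 Mb, was -0.89. MSMO1, a demethylation step, fell by 0.90 ± 0.05 and lies on chromosome 4, beyond the lowered stretch that ends at 160 Mb. The genes between 160 and 170 Mb, where it lies, had a median of -0.17. STARD4, HSD17B7 and PMVK were the 3 not called. In the shorter fatty acid list, 11 of 16 tested genes were lower and 1, ACSL4, was higher. SCD, which desaturates stearate, went from 1004 ± 16.5 CPM to 644 ± 4.96 CPM (SD, n = 3) and fell by 0.64 ± 0.03, and FADS1, on chromosome 11, fell by 0.95.

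**Figure D5:**
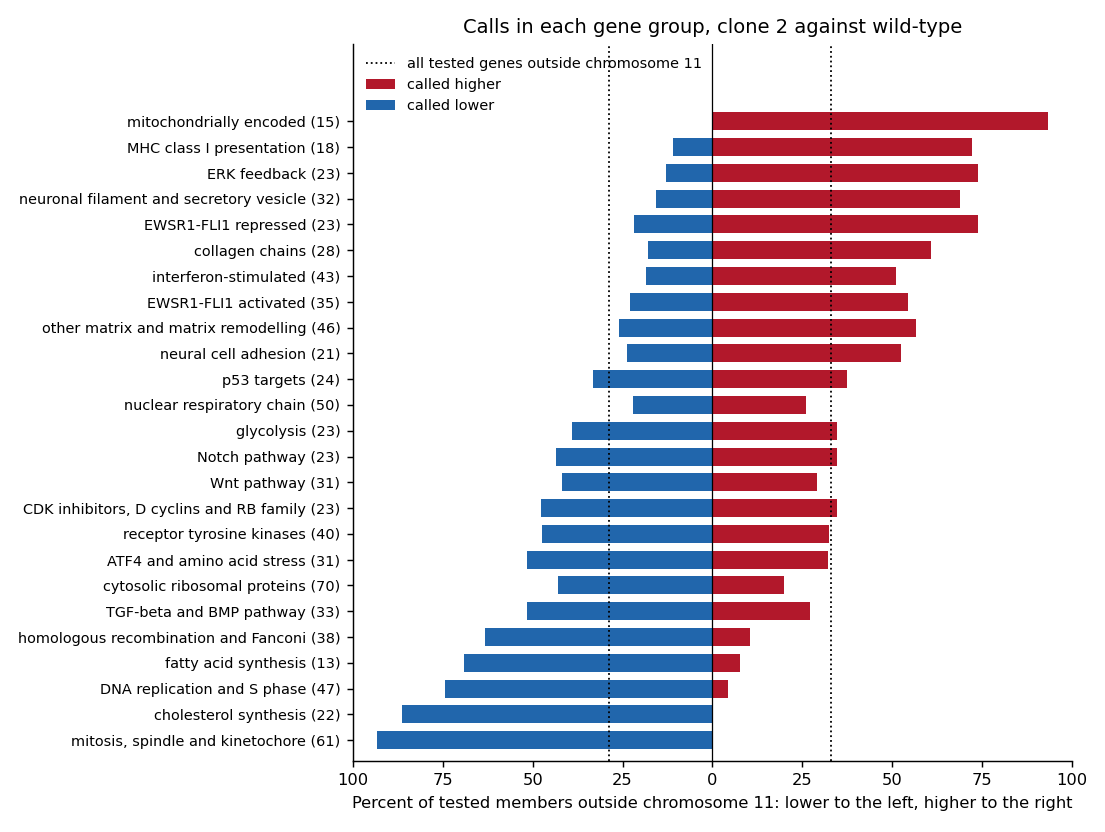
Percent of tested members outside chromosome 11 called lower (blue, to the left) and higher (red, to the right) in each gene group with at least 10 tested members, with the number tested in brackets; dotted lines mark the shares over all tested genes outside chromosome 11, 28.8% lower and 32.9% higher. Mitosis and cholesterol synthesis genes extend to the left only, and mitochondrially encoded genes to the right only.

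Most antigen presentation genes were higher. Of 18 MHC class I presentation genes, none of which lies on chromosome 11, 13 were higher and 2 were lower, with a median of 0.69; outside chromosome 11, 32.9% of all genes were higher. HLA-B had 7.68, 8.34 and 7.24 CPM in wild-type and 36.8, 32 and 35.2 CPM in clone 2, a rise of 2.17 ± 0.08. NLRC5, which encodes the activator of this gene set, rose by 2.46 ± 0.28 from 25 counts to 132, and PSMB8, an immunoproteasome subunit gene, rose by 1.92 ± 0.37 from 21 to 76. PSMB9, another immunoproteasome subunit gene and one of the 13, was not called with limma-voom (adjusted p = 0.132). In edgeR its call was also lost without the first clone 2 library (adjusted p = 0.413) and without the first or the third wild-type library (adjusted p = 0.0698 and 0.107). The chaperone gene CALR fell by 0.18 ± 0.03. Reads of the HLA genes can be split between near-identical copies, so their values are uncertain. Of 49 tested interferon-stimulated genes, 22 were higher and 14 were lower, with a median of 0.22. The 6 on chromosome 11 were all lower, with a median of -0.66, where all tested genes of the chromosome had 71.5% lower and a median of -0.56. Elsewhere 22 of 43 were higher and 8 were lower, against 32.9% and 28.8% of all genes. PARP10 rose 11.6-fold and GBP2 4.35-fold, from means of 0.3 and 0.593 CPM, and SAMD9 rose by 1.98 ± 0.20. OAS1, which encodes a sensor of double-stranded RNA, fell by 1.88 ± 0.58 from 28 counts to 7, and the call was lost without the second wild-type library (edgeR, adjusted p = 0.0503).

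Most feedback genes of the ERK pathway were higher. Of 26 tested, 18 were higher, against 31.5% of all tested genes, 4 were lower and 4 were not called, with a median of 0.55. DUSP6, the phosphatase that turns ERK off, had 26.9, 32.5 and 29.99 CPM in wild-type and 92, 88.9 and 104 CPM in clone 2, a rise of 1.67 ± 0.06 or 3.19-fold. The inhibitor gene SPRY4 went from 3.61, 3.89 and 3.38 CPM to 10.4, 10.7 and 10.3 CPM, a 2.9-fold rise. In both genes every clone 2 library lay above every wild-type library. SPRY1 rose by 1.25 ± 0.23, and FOSL1, an AP-1 subunit gene on chromosome 11, by 1.52 ± 0.17. The 4 that fell were DUSP7, IER3, MYC and CCND1, by 0.67, 0.67, 0.24 and 0.29. In the libraries labelled as the rescue DUSP6 lay 0.26 and SPRY4 -0.39 from wild-type, whereas SPRY1 lay 1.16 and FOSL1 0.93 from it. Over the 26 tested genes the median there was 0.22. Among 40 tested receptor tyrosine kinase genes 13 were higher and 19 were lower. Besides PDGFRA and EPHA5, EPHB1 fell by 2.40 ± 0.54 and ROR2, a Wnt receptor, by 2.12 ± 0.40.

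Neuronal genes were higher more often than lower. Of 32 tested genes of neuronal filaments and secretory vesicles, none on chromosome 11, 22 were higher and 5 were lower, with a median of 0.53. CHGB, a granin gene of secretory granules, had 0.0839, 0.19 and 0.448 CPM in wild-type and 1.64, 2.13 and 1.06 CPM in clone 2, a rise of 2.62 ± 0.36. The neuronal tubulin gene TUBB3 rose by 2.35 ± 0.30 from a mean of 0.283 CPM. SYT4, a synaptotagmin gene, had 3.82, 3.41 and 3.72 CPM against 0.628, 0.607 and 0.648 CPM and fell by 2.53 ± 0.22. MAP2, STMN3, CPE and NEFH were the others that fell, by 1.49, 0.58, 0.44 and 0.28. Only 6 of the 19 GABA-A receptor subunit genes were tested, of which 5 were higher and 1 was lower. GABRA5 and GABRG3, at chr15:26866363-26949207 and chr15:26971282-27541991, both rose. GABRG3 went from 2 counts to 88, a ratio of 46.5 with an exact 95% counting interval of 12.5 to 389.7. The 22 genes of the stretch between 20 and 30 Mb around them had a median of -0.14. Where genes overlap on opposite strands, as around GABRA5, reads of one could count for another if strand was ignored. GABRE and GABRR2 rose by 0.30 and 0.81, and GABRA3, with 10 counts against 0, was at least 3.16-fold lower. Of 25 tested neural adhesion genes 12 were higher and 8 were lower. The contactin gene CNTN6 went from 22 counts to 1, a ratio of 0.048 with an exact 95% counting interval of 0.00116 to 0.297, and the synaptic adhesion gene SDK2 rose by 2.19 ± 0.22.

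Matrix genes changed strongly in both directions. Of 38 collagen chain genes, 28 were tested, with 17 higher and 5 lower and a median of 0.76. COL6A3 had 2.43, 2.51 and 3.31 CPM in wild-type and 12.7, 13.4 and 14.6 CPM in clone 2, a 4.84-fold rise. COL15A1 rose by 3.28 ± 0.48 and the basement membrane chain gene COL4A3 by 2.15 ± 0.24. The 5 that fell were COL4A5, given above, and its neighbour COL4A6, COL2A1, COL3A1 and COL5A2, by 1.78, 1.22, 0.94 and 0.11. Among 47 tested genes of other matrix proteins and matrix remodelling, 26 were higher and 13 were lower, with a median of 0.32. The gelatinase gene MMP2 had 1.8, 2.08 and 1.96 CPM against 0.244, 0.152 and 0.139 CPM and fell by 3.36 ± 0.31. ADAMTS9, a metalloprotease gene, had 0 counts in wild-type and 116 in clone 2, at least 40.8-fold higher. With 0 counts in clone 1 as well, it passed the filter on low counts only through clone 2 and the libraries labelled as the rescue. VCAN and LUM of this list are given above.

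Targets of the EWSR1-FLI1 fusion did not move as one. Of 37 tested genes that the fusion is known to activate, 19 were higher and 10 were lower, with a median of 0.09. IGF1 had 15.8, 17.1 and 16.1 CPM in wild-type and 32.2, 32.6 and 30.3 CPM in clone 2, a rise of 0.96 ± 0.06. CCK, a neuropeptide gene, had 1.05, 1.18 and 1.28 CPM against 2.86, 3.04 and 3.61 CPM and rose by 1.42 ± 0.19. Of 24 tested genes that the fusion is known to repress, 17 were higher and 5 were lower, with a median of 0.32. CDKN1A and COL6A3, already given, are among those 17. The 5 that fell were the collagen cross-linking enzyme gene LOX, by 2.34 ± 0.34, the matricellular genes CCN1 and CCN2, by 1.62 and 0.96, COL3A1, and the receptor gene TGFBR2, by 0.49.

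Mitochondrially encoded genes were higher in clone 2, with 1 exception. Of 15 mitochondrially encoded genes 14 were higher and 0 were lower, with a median of 0.37. MT-CYB, a subunit of complex III, had 1758, 1716 and 1787 CPM in wild-type and 3148, 3053 and 2986 CPM in clone 2, a rise of 0.80 ± 0.04. The ribosomal RNAs MT-RNR2 and MT-RNR1 rose by 1.11 ± 0.03 and 0.71 ± 0.04, MT-RNR2 from 1888, 1861 and 1824 CPM to 4014, 3988 and 3989.5 CPM, the largest change of the list. Only MT-ND6 was not called, at 0.08. Nuclear genes of the respiratory chain were lower in 7 of 7 cases on chromosome 11, with a median of -0.45, less far than the median of -0.56 over all tested genes of the chromosome. NDUFC2 of complex I fell by 1.13 ± 0.09. Elsewhere 13 of 50 were higher and 11 were lower, against 32.9% and 28.8% of all genes. Over the whole list of 57 the count was 13 higher and 18 lower, and it turned to 27 higher and 15 lower with upper quartile scaling. Of 76 tested cytosolic ribosomal protein genes 36 were lower and 14 were higher, with a median of -0.08, and all 6 on chromosome 11 were lower, with a median of -0.64. RPL5 on chromosome 1, RPS3 on chromosome 11 and RPS7 before ID2 had the largest changes of the list, at 1.10, -1.04 and -0.94, and each lies in a shifted stretch. Ribosomal protein genes have many processed copies, so reads can be split among them.

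Signalling and metabolic lists held both directions, and several lay near the shares over all tested genes, 31.5% higher and 30.6% lower. Of 33 tested genes of the ATF4 and amino acid stress response 18 were lower and 10 were higher. ALDH1L2, a mitochondrial folate enzyme gene, had 76.1, 75.3 and 75.6 CPM in wild-type and 17, 20.8 and 16.3 CPM in clone 2 and fell by 2.08 ± 0.06. The stress cytokine gene GDF15 went the other way, from 5 counts to 81, a rise of 4.01 ± 0.49. Of 34 tested TGF-beta and BMP pathway genes 18 were lower and 9 were higher. The ligand gene BMP5 fell by 2.64 ± 0.27 and the feedback inhibitor gene PMEPA1 by 2.27 ± 0.22, while the BMP antagonist gene NOG rose by 1.59 ± 0.39. Of 34 tested Wnt pathway genes 16 were lower and 9 were higher. VANGL2, a planar polarity gene, had 5.66, 4.64 and 4.76 CPM against 0.0698, 0.152 and 0.0926 CPM and fell by 5.58 ± 0.31. RNF43, which encodes a ligase that removes Wnt receptors, fell by 3.13 ± 0.56, and the Wnt effector gene LEF1 rose by 1.58 ± 0.09. The Notch list had 9 higher and 10 lower of 24 tested, while upper quartile scaling gave 9 and 5. Its 9 higher genes lie near the share over all tested genes, as do the 8 of the glycolysis list. DLK1 is the largest riser of the Notch list, MAML2, a Notch coactivator gene on chromosome 11, rose by 1.45 ± 0.28 and HEYL, a Notch target gene, fell by 1.09 ± 0.10. Of 24 glycolysis genes 8 were higher and 10 were lower, or 10 and 10 with upper quartile scaling. The hexokinase gene HK1 went from 26.5, 29.3 and 26.5 CPM to 76, 77.5 and 76.6 CPM, a rise of 1.49 ± 0.05, the lactate exporter gene SLC16A3 rose by 1.22 ± 0.14 and PDK1 fell by 0.93 ± 0.09.

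Markers of other cell types were looked at in every library. Of 20 blood cell markers 9 had counts in the table, with sums of 67.2 to 71.6 CPM in wild-type and 50.3 to 55.9 CPM in clone 2. Of the 7 tested, 5 were higher and 1, LCP1, was lower, with a median of 1.14. Most of the sum was LCP1, with means of 59.3 and 30.7 CPM, whereas CD14 and ITGAM had 0.16 and 0.187 CPM in wild-type and 0.711 and 2.34 CPM in clone 2. CD79A had 5.33, 5.83 and 7.38 CPM against 12.7, 11.8 and 16.9 CPM, and CSF1R had means of 0.269 and 0.724 CPM and CORO1A of 2.19 and 3.68 CPM. The 5 of 12 endothelial markers with counts summed to 4.83 to 5.58 CPM and 9.51 to 10.6 CPM. The 12 of 21 epithelial markers with counts summed to 247 to 255 CPM and 257 to 297 CPM, most of it from KRT18 and JUP, while EPCAM had means of 0.836 and 1.82 CPM and CLDN4 1.04 and 9.06 CPM. Their part in the changes above was not tested.

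Clone 1, made from the same line, gives the same contrast against the same 3 wild-type libraries, so the comparisons share their controls and are set side by side only. CDKN1A lay 1.87 from wild-type in clone 2 and 1.33 in clone 1, CCNA2 -1.16 and -0.58, HLA-B 2.17 and 1.78, DLK1 5.14 and 4.12, and HMGCS1 -0.79 and -1.48. Other genes went opposite ways: GABRA5 lay 5.65 from wild-type in clone 2 and -6.31 in clone 1, NCAM1 1.60 and -5.80, CDK6 2.47 and -2.96, and ID1 -0.57 and 0.48. YAP1 was lower in clone 2 and lay 0.02 from wild-type in clone 1. These genes are examples, and no count over all tested genes is given here. Among the lists above, medians in clones 2 and 1 were -0.38 and -0.18 for mitosis and -0.38 and -0.55 for cholesterol synthesis. They were 0.69 and 0.78 for MHC class I presentation, 0.55 and -0.07 for ERK feedback, and 0.53 and 0.07 for neuronal filaments and secretory vesicles. With 1 clone, a difference of this clone from wild-type cannot be told apart from an effect of the ID2 edit.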

How the data were processed

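The deposited values are raw read counts per gene from the authors, 1 column per library and 12 libraries in 4 groups, with genes given as Ensembl identifiers. The submitters' processing notes name FastQC, STAR and the build hg38. The counter, its strand setting and the annotation were not given in the sources used here. RNA was purified on columns and libraries were made with a stranded kit from polyadenylated RNA, per the labels' protocols. Symbols matched for 20717 of 21569 identifiers, and GENCODE 29 coordinates for 20825.

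Genes were filtered with filterByExpr (minimum count of 10), scaled by TMM and fitted over all 12 libraries, 1 coefficient per group, with the quasi-likelihood test of edgeR 4.0.16 in R 4.3.3 and Benjamini-Hochberg adjustment over all tested genes. Chromosome 11 genes were also tested against their chromosome's median. Exact 95% intervals and the floor of 3 counts cover counting error. Replicate libraries differed by more than counting noise (chi-square per degree of freedom from 1.64 to 2.93 in both groups). Alternatives used DESeq2 1.42.0, limma 3.58.1, other scalings, filters and subsets of libraries.

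The groups, the 31 gene lists and the naming rule were chosen with earlier results of these data known. The rule named the ID and E proteins, the fusion partners, the 12 genes outside and the 8 genes on chromosome 11 with the largest changes each way, at 1 CPM or more with no overlap between groups, every tested chromosome 11 landmark, and for each list at most 4 members that were called. Members of small counts, genes not called, genes next to ID2, and BUB1, MKI67, CD99, NKX2-2, MDM2, LCP1, KRT18 and JUP were added after their values were seen. Some genes that the rule names are not reported here. Promoter windows are from RefSeq (GRCh38.p14).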

Additional observations from a re-analysis of the deposited data

Results flagged for a closer look

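Of 179 genes named by rule, 37 were called in opposite directions in clones 2 and 1 against the same wild-type libraries, and clone 2 also differed from clone 1 when compared directly (edgeR's quasi-likelihood test, Benjamini-Hochberg adjustment); 31 of them are described above. Values below are the log2 difference of clone 2 from clone 1, with 3 libraries in each clone.

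Among genes higher in clone 2 and lower in clone 1, the difference was 11.96 for GABRA5, 10.76 for GPR27, 10.29 for RAB3C, 7.40 for NCAM1 and 6.87 for VCAN. It was 6.12 for BICC1, 5.43 for CDK6, 5.32 for UBASH3B, 5.11 for GPX3 and 4.40 for NOS1. Smaller differences were 3.18 for COL4A3, 2.61 for FERMT3, 2.49 for SPRY4, 2.48 for FOSL1 and 1.81 for HK1.

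Among genes lower in clone 2 and higher in clone 1, the difference was -10.37 for GABRA3, -9.27 for SLC7A3, -8.68 for H2AJ, -7.58 for PRSS21 and -6.52 for CNTN6. It was -4.77 for MMP2, -3.70 for BMP5, -3.49 for OAS1, -3.44 for CNTN5, -2.36 for PARVA and -2.36 for CCN1. Smaller differences were -2.26 for ARHGEF17, -1.998 for HEYL, -1.90 for THY1, -1.06 for ID1 and -0.48 for CCND1. Where a clone had no count, as for GPR27 and RAB3C in clone 1 and GABRA3 in clone 2, or only a few, the size of the fitted difference depends on the prior count and is no bound. The clones share the wild-type libraries, and the cause of the differences was not tested.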

How the results depend on the processing

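Across 15 other settings, no count of calls over all genes, over chromosome 11 or over the other chromosomes moved by more than 1.5 times. Leaving out single libraries gave 4754 to 5153 higher and 5125 to 5220 lower genes, with 64 to 66 higher and 605 to 610 lower genes on chromosome 11. The median of chromosome 11 was -0.63 with scaling factors computed without chromosome 11, -0.64 with no filter, -0.54 with upper quartile scaling and -0.62 over genes at 10 CPM or more; without single libraries it ran from -0.63 to -0.60. Upper quartile scaling gave 6413 higher and 4257 lower genes, a share of higher calls of 60.1% against 50.7%. DESeq2 gave 4884 higher and 4911 lower genes. Of the 179 genes named by rule, 7 changed their call under some setting and none reversed; OAS1, PSMB9 and TCF4 are the ones described above. Of 62 list counts, 12 moved by more than 1.5 times under those settings. Outside the shifted stretches, a setting chosen after seeing the data, fewer genes could be counted, and the cytosolic ribosomal proteins had 19 lower and 11 higher of 56, against 36 lower and 14 higher of 76. Why the counts moved was not tested. With the replicate block and the 6 libraries alone, 5153 genes were higher and 5245 lower; same-numbered libraries did not deviate together (r from -0.02 to 0.05), and not every library correlated best with its own number. The few counts per library of the lowest genes limit the precision of their changes.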
